A study of Mus musculus with 15 samples.

Results

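The genes described here are 10 members of the fibroblast growth factor (FGF) family that the developing mouse stomach could use for signaling: the ligands Fgf2, Fgf7, Fgf9, Fgf10, Fgf15 and Fgf18 and the receptors Fgfr1, Fgfr2, Fgfr3 and Fgfr4. They were chosen by gene symbol out of 44788 symbols in the files, and all 10 were present. Of the 10, 9 reached an FPKM (fragments per kilobase of transcript, scaled to the mapped fragments of the library, so that genes may be compared per length) of at least 1 at 1 or more timepoints, as did 16902 of all symbols. Fgf15 did not, and it was left out of the tests across genes. FGF ligands are secreted proteins that bind receptor tyrosine kinases together with heparan sulfate, and the bound receptors signal through adaptor proteins and the Ras-MAPK cascade. In the gut, Fgf7 and Fgf10 are typically made by mesenchyme and act on the Fgfr2 form of the epithelium, whereas Fgf9 is typically made by epithelium and mesothelium and acts on mesenchymal receptors. The early stomach needs Fgf10 and Fgfr2 for normal growth and shape of its epithelium. In the files (GRCm38) Fgf10 lies at chr13:118714699-118792573, Fgf7 at chr2:126034658-126091185, Fgf9 at chr14:58071037-58112720, Fgf18 at chr11:33116970-33147400, Fgf2 at chr3:37348477-37404884 and Fgf15 at chr7:144896532-144900953. Fgfr1 lies at chr8:25513659-25575718, Fgfr2 at chr7:130162451-130266808, Fgfr3 at chr5:33721724-33737068 and Fgfr4 at chr13:55152818-55168759.

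The study sequenced RNA of whole stomachs of C57BL/6 mice with no engineered allele and no treatment, at 15 timepoints from E12.5 (E for embryonic day) to W8 (W for postnatal week), and only 1 transcriptome was deposited per timepoint. Its RNA phases were used as groups: Ph1 holds E12.5 to E17.5 (n = 6), Ph2 holds E18.5, days 1, 3 and 5 after birth (D1, D3, D5), W1 and W2 (n = 6), and Ph3 holds W3, W6 and W8 (n = 3). Each phase was tested with its timepoints as replicates. The phases had been drawn from the same transcriptomes, so a p-value is no independent test. It sets the difference between phases against the spread of timepoints inside phases, which includes trends with age. Stomachs taken after W2 came from males and earlier ones from either sex, so age and sex cannot be told apart at the step into Ph3. By the study's reporting summary, samples up to E17.5 pooled the stomachs of several embryos and later ones held 1 stomach each. If this holds for the RNA, pooling and age cannot be told apart at the step from Ph1 to Ph2. The tissue holds many cell types, and fewer cells of a type and less RNA per cell cannot be told apart in it.

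The summed FPKM of 10 stomach markers ranged from 855 to 3738 in Ph1, from 6902 to 64801 in Ph2 and from 194753 to 281267 in Ph3, most of it from Tff1, Gkn1 and Pgc. In Ph3, 8 of the 10 lay above all their Ph1 values, while the transcription factors Barx1 (150 to 472 FPKM in Ph1, 37.3 to 97.0 in Ph3) and Sox2 (37.2 to 52.5 and 5.34 to 9.62) lay below theirs. The 10 most abundant symbols took 11.2% of a transcriptome at E14.5 and 53.2% at W6, so the FPKM of other genes depended on how transcriptomes were scaled. The median log2 difference over all 16902 tested symbols was -0.22 from Ph1 to Ph2 and -0.43 from Ph2 to Ph3. A median-ratio scaling, which sets the typical gene equal across transcriptomes, brought these medians to 0.00 and -0.02. D1 stood apart by liver transcripts (Alb at 461 FPKM, against at most 65.4 at any other timepoint) and W8 by the near absence of squamous forestomach transcripts.

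Fgf10 and Fgf7 belong to the same FGF subfamily and share a receptor, and their RNA took opposite courses before birth. The sequences upstream of their transcription starts are shown because the clearest contrast among the ligands is between this pair. Each line gives the 250 bases before the RefSeq start (GRCm38.p6, plus strand), at chr13:118714449-118714698 for Fgf10 and chr2:126034408-126034657 for Fgf7. Capitals mark a GC box (GGGCGG or its reverse complement), a CCAAT box (CCAAT or its reverse complement) or a TATA box (TATAAA or its reverse complement), and none of these letters overlapped another motif here.
Fgf10: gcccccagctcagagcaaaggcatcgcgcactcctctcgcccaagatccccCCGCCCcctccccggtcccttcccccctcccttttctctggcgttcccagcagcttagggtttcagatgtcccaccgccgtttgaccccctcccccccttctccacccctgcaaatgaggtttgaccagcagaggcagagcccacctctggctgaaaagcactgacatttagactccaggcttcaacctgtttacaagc
Fgf7: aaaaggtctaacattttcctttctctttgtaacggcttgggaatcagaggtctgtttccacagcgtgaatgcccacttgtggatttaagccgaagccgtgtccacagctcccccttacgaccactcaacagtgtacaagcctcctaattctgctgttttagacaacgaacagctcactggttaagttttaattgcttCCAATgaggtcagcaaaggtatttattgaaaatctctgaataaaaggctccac
The Fgf10 window had 61.2% G and C, 8 CG dinucleotides and 1 GC box, and the Fgf7 window had 43.6% G and C, 6 CG dinucleotides and 1 CCAAT box. Over the 32851 RefSeq windows of this length in the table, the median was 52.4% G and C with 6 CG dinucleotides, 32.7% held a GC box, 33.8% a CCAAT box and 12.4% a TATA box. Of the 10 members, 8 had a window in the table, and Fgf15 and Fgfr1 had none. A match of these letters describes the window and marks no site. In GENCODE vM21 (GRCm38), Fgf7 lies inside Fam227b on the opposite strand without sharing exon bases, and Fam227b reached at most 0.0549 FPKM. The antisense gene Gm16263 shares 123 exon bases with Fgf10 and was not analysed here, and the sources used here do not state whether strand was kept.

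Fgf10, a mesenchymal ligand for epithelial growth, had its highest level at E12.5 and was lower at each following day of Ph1. Its FPKM was 10.9 at E12.5, 8.27 at E13.5, 6.60 at E14.5, 4.79 at E15.5, 2.85 at E16.5 and 1.77 at E17.5. The deposited confidence bounds of consecutive days did not overlap at any of these 5 steps. In Ph2 the FPKM was 1.81 at E18.5, 0.924 at D1, 1.58 at D3, 1.48 at D5, 1.07 at W1 and 0.769 at W2. In Ph3 it was 0.502 at W3, 0.368 at W6 and 0.487 at W8. The highest and the lowest value differed 29.6-fold, or 13.3-fold after median-ratio scaling. Fgf10 fell by 1.45 on the log2(FPKM + 1) scale from Ph1 to Ph2 (SE 0.287, adjusted p = 0.000714, limma). Its Ph1 and Ph2 values overlapped only at the E17.5 and E18.5 levels. The step from Ph2 to Ph3 did not pass the test (log2 difference -0.63, adjusted p = 0.137, limma), although all 3 Ph3 values lay below all 6 Ph2 values. Because of the added 1, such differences are smaller than the true change where FPKM is low.

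Fgf7, also known as keratinocyte growth factor, was low at E12.5 and highest from E16.5 to E18.5. Its FPKM was 0.668 at E12.5, 0.882 at E13.5, 1.44 at E14.5, 1.75 at E15.5, 3.15 at E16.5 and 3.13 at E17.5. It was 3.30 at E18.5, 2.13 at D1, 1.82 at D3, 1.74 at D5, 0.617 at W1 and 1.01 at W2, followed by 1.36 at W3, 0.524 at W6 and 0.337 at W8. The value at E16.5 was 4.72-fold that at E12.5 (4.89-fold after median-ratio scaling). The phases divide the high timepoints between Ph1 and Ph2, and its mean was 1.84 ± 1.08 FPKM in the former and 1.77 ± 0.938 FPKM in the latter (SD over 6 timepoints each). Neither step passed the test, with a log2 difference of -0.02 from Ph1 to Ph2 that turned to 0.13 after median-ratio scaling, and of -0.65 from Ph2 to Ph3 (adjusted p = 0.964 and 0.107, limma). A smooth curve over the rank of age, which does not use the phases, called Fgf7 (adjusted p = 1.67e-05, limma), as it called 77.6% of all symbols.

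The ratio of Fgf10 to Fgf7 within a transcriptome does not depend on how that transcriptome is scaled. Fgf10 was 16.3 times Fgf7 at E12.5, 9.37 times at E13.5, 4.59 times at E14.5 and 2.74 times at E15.5. At E16.5 the ratio was 0.903 and the bounds of both genes overlapped, and at E17.5 it was 0.566 with Fgf7 the higher beyond the bounds. After birth the order was not fixed. The ratio was 0.433 at D1, 0.868 at D3, 0.847 at D5, 1.73 at W1 and 0.763 at W2. At W3, W6 and W8 it was 0.370, 0.703 and 1.44. The bounds of both genes were apart at D1, W1 and W3 and overlapped at the other timepoints after birth. Its log2 value averaged 1.66 ± 1.89 over Ph1 and -0.35 ± 0.684 over Ph2 (SD over 6 timepoints each). This difference of -2.01 had p = 0.0303 in an exact two-sided permutation test and an adjusted p = 0.121 over 4 ratio tests, so it did not pass at 0.05. With E17.5 counted in Ph2 the difference was -2.57 (exact permutation test, adjusted p = 0.0202), and without E17.5 it was -2.51 (adjusted p = 0.0346). With fetal and suckling timepoints as groups it was -1.55 and did not pass (exact permutation test, p = 0.124, adjusted p = 0.359). The mean log2 ratio in Ph3 was -0.47 ± 0.983 (SD, n = 3).

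**Figure D1:**
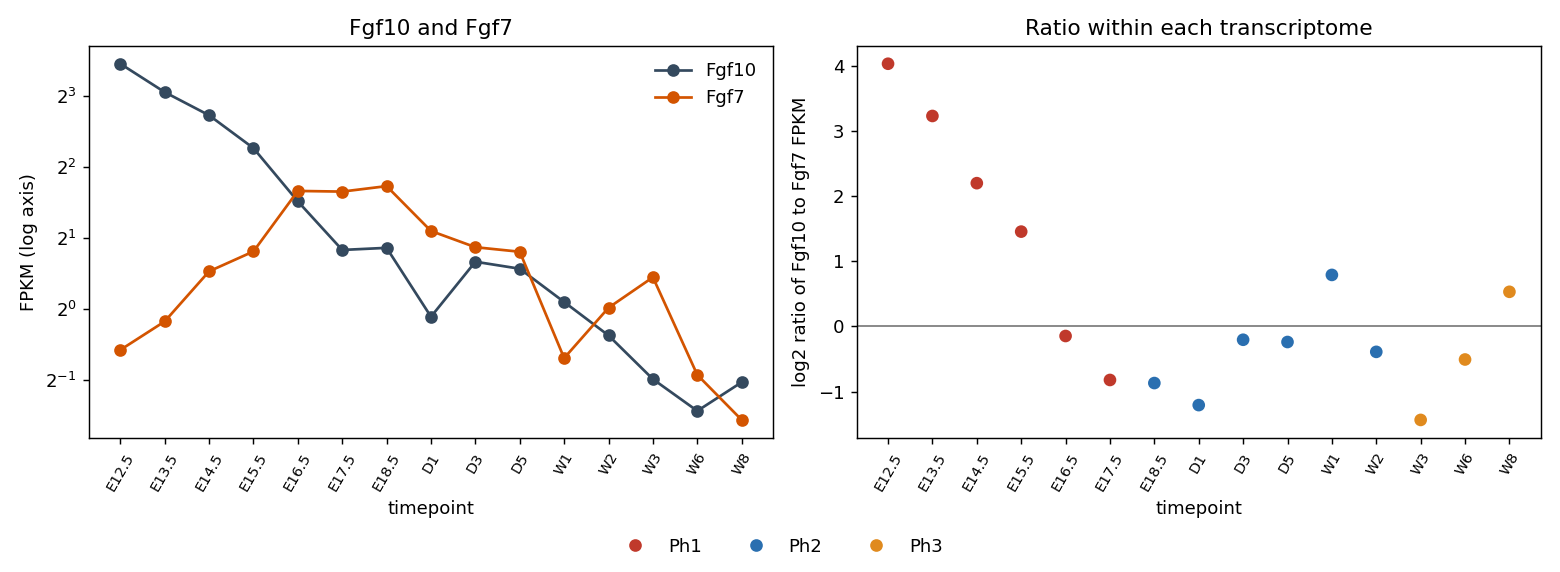
FPKM of Fgf10 and Fgf7 on a log axis (left) and the log2 ratio of their FPKM (right) at each of the 15 timepoints, colored by phase on the right, with 1 transcriptome per point and no replicate error. The ratio is 4.03 at E12.5 and -0.15 at E16.5, and lies between -1.43 and 0.79 at all later timepoints.

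Fgf9, which in the gut signals to mesenchyme, held a narrow range before weaning and was lower after it. Its lowest, median and highest FPKM were 2.02, 2.64 and 3.43 in Ph1, and in Ph2 the median was 2.15 and the highest value 2.82. In Ph3 it was 0.722 at W3, 0.452 at W6 and 0.575 at W8, below every earlier value. The value at W2 was 3.49-fold that at W3 (2.75-fold after median-ratio scaling), and W2 to W3 was the only pair of consecutive timepoints whose bounds did not overlap. Fgf9 fell by 1.05 on the log2 scale from Ph2 to Ph3 (SE 0.130, adjusted p = 8.28e-05, limma). The difference from Ph1 to Ph2 did not pass the test (log2 difference -0.14, or 0.07 after median-ratio scaling, adjusted p = 0.277, limma).

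Fgf18, a ligand best known from cartilage and lung, had overlapping levels in all phases. Its lowest, median and highest FPKM were 1.17, 2.22 and 2.58 in Ph1 and 0.703, 1.90 and 2.62 in Ph2, and its Ph3 values were 1.27, 2.28 and 2.09. The values of the 3 phases overlapped, and neither step passed the test (log2 difference -0.14 and 0.06, adjusted p = 0.509 and 0.835, limma), the first turning to 0.04 after median-ratio scaling. The second was 0.49 after median-ratio scaling (adjusted p = 0.113, limma) and 0.67 with quantile normalization (adjusted p = 0.0520, limma). About 17.2 to 71.8 effective fragments stood behind each of its values, as read from the width of the bounds, which limits the precision of each.

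Fgf2, the basic FGF that is stored in the matrix, had 4 gene entries, of which 3 lie on NT_ sequences and 1 on chromosome 3. Its summed FPKM ranged from 0.430 at W8 to 9.47 at E16.5. Much of the highest sums came from an NT_ entry that rested on at most 1 effective fragment, with 7.23 FPKM and an upper bound of 28.9 at E16.5. The chromosome entry ranged from 0.235 at W8 to 1.59 at E15.5 and rested on 1.8 to 14.9 effective fragments. Neither step passed the test with the sum (log2 difference -0.11, or 0.09 after median-ratio scaling, from Ph1 to Ph2 and -0.66 from Ph2 to Ph3, adjusted p = 0.852 and 0.325, limma) or with the chromosome entry alone (-0.17 and -0.31, adjusted p = 0.377 and 0.202, limma).

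Fgf15, an ileal hormone in the adult that restrains bile acid synthesis in the liver, was listed at 0 at 11 of 15 timepoints. It reached 0.872 FPKM at E16.5, with bounds from 0.466 to 1.28. The other values above 0 were 0.0343 at E18.5, 0.0286 at D5 and 0.0300 at W1, each on 0.5 effective fragments. The 7 intestine markers found in the files summed to 9.34 FPKM at E15.5, to 15.4 at E16.5 and to 27.2 at E18.5. The sum at E17.5 was no lower than at E16.5. At E16.5 Vil1 was at 9.88 FPKM, Apoa4 at 3.17, Fabp2 at 1.26, Cdh17 at 0.561 and Lct at 0.136. The intestinal regulator Cdx2 was at 0.429 FPKM at E16.5 and Cdx1 was listed at 0. Vil1 and Apoa4 carried most of the E16.5 sum and were highest after weaning, with 27.0 FPKM at W3 and 69.8 at W6. The source of the Fgf15 RNA at E16.5 was not tested.

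**Figure D2:**
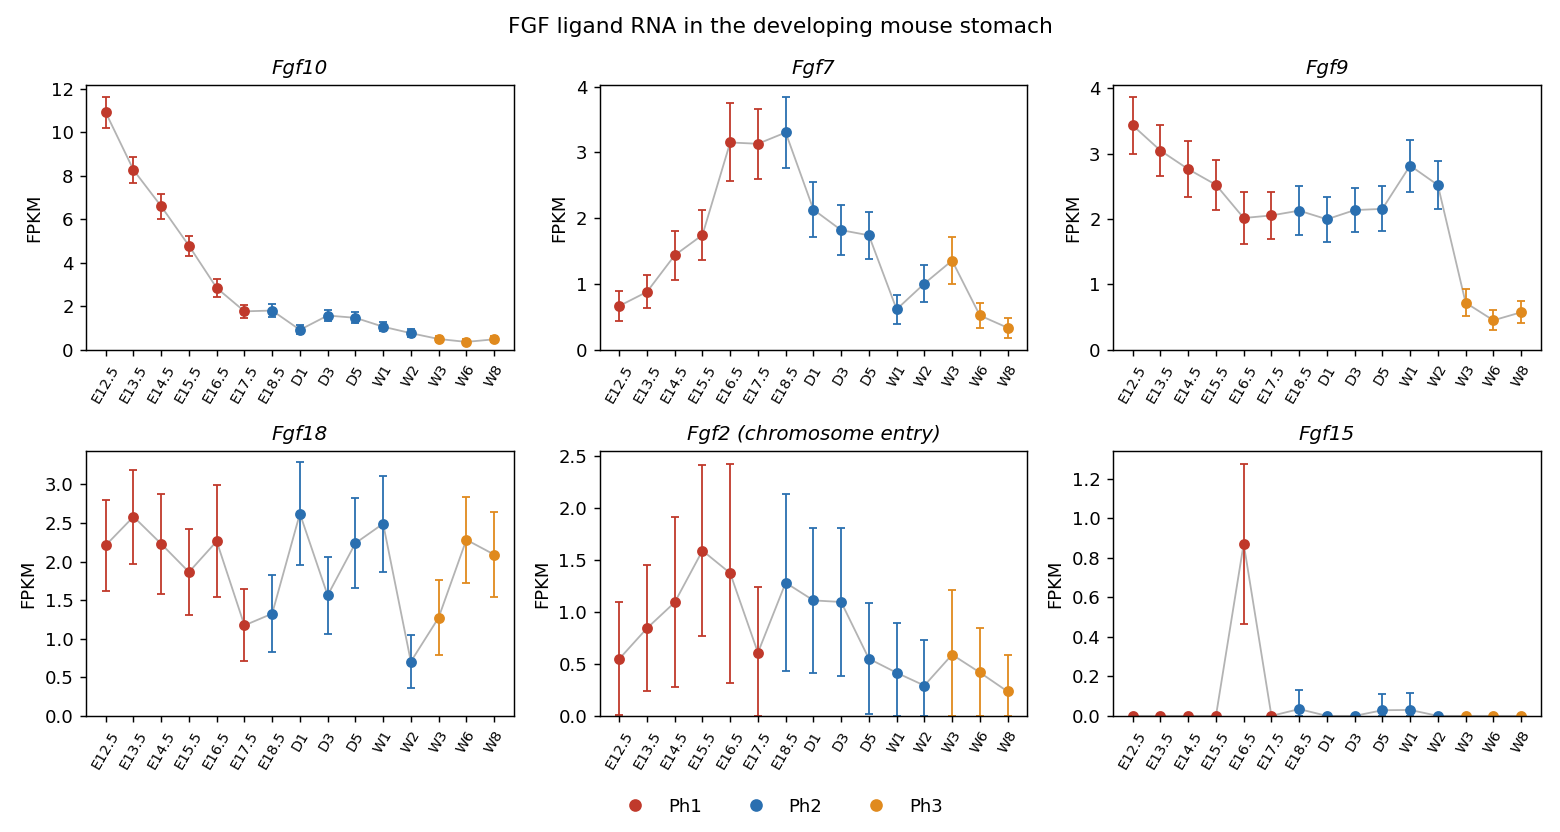
FPKM of the 6 ligands at the 15 timepoints, each panel on its own axis from 0, with points colored by phase and bars giving the confidence bounds deposited by the authors (counting error only). Fgf10 runs from 10.9 at E12.5 to 0.487 at W8, Fgf7 is highest at E18.5 with 3.30, and Fgf15 stands above 0.1 at E16.5 alone. The Fgf2 panel shows its entry on chromosome 3.

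The receptors were lowest after weaning. The summed FPKM of the 4 receptors was between 99.1 and 107 in Ph1, between 38.9 and 81.1 in Ph2 and between 12.2 and 22.4 in Ph3, so the phases did not overlap. Fgfr2 and Fgfr1 made up most of this sum at every timepoint.

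Fgfr1, the receptor typical of mesenchyme, was highest at E12.5 and passed the test as lower at both steps, the first narrowly. Its FPKM was 41.4, 35.8, 32.4, 28.2, 25.9 and 22.9 from E12.5 to E17.5. From E18.5 to W2 it was 21.1, 22.0, 20.5, 24.7, 16.1 and 13.9, and at W3, W6 and W8 it was 8.86, 4.20 and 4.64. Ph1 and Ph2 overlapped through D5 and E17.5, and every Ph3 value lay below every earlier one. Fgfr1 fell by 0.63 from Ph1 to Ph2 and by 1.62 from Ph2 to Ph3 on the log2 scale (SE 0.186 and 0.228, adjusted p = 0.00903 and 0.000139, limma). The first of these calls was lost without any 1 of 10 timepoints (the 4 youngest, E18.5, D1, D3, W1, W2 or W8), with adjusted p from 0.0103 to 0.0233, and after median-ratio scaling (adjusted p = 0.0595). It was also lost with a pseudocount of 0.1, no filter, quantile normalization or life stages as groups (adjusted p = 0.0138, 0.0177, 0.0208 and 0.0237, limma). In all, it was kept in 9 of 26 alternatives.

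Fgfr2, the receptor whose epithelial form binds Fgf7 and Fgf10, was the most abundant member at 14 of 15 timepoints and had its highest level at E14.5. Its FPKM was 45.9, 49.5, 56.9, 51.5, 50.9 and 46.3 from E12.5 to E17.5, 40.3, 35.8, 29.7, 37.7, 21.4 and 17.6 from E18.5 to W2, and 8.79, 5.61 and 7.25 at W3, W6 and W8. The 3 phases did not overlap in FPKM, but after median-ratio scaling E18.5 (36.7) lay above E12.5 (36.2). Fgfr2 fell by 0.76 from Ph1 to Ph2 and by 1.89 from Ph2 to Ph3 (SE 0.181 and 0.222, adjusted p = 0.00236 and 7.07e-05, limma). After median-ratio scaling the first difference was -0.48 and no longer passed (adjusted p = 0.0136, limma) and the second was -1.34 (adjusted p = 0.000149). The values are per gene, so the epithelial and mesenchymal splice forms of Fgfr2 were not separated.

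Fgfr3, which is expressed in squamous epithelia among other tissues, differed from the other receptors within Ph1. Its FPKM was 7.51, 9.79, 12.7, 15.7, 24.4 and 26.3 from E12.5 to E17.5, and the bounds of consecutive days did not overlap at 4 of these 5 steps. It was 17.4, 18.0, 8.09, 11.8, 5.44 and 4.86 from E18.5 to W2, and 3.31, 1.72 and 2.54 at W3, W6 and W8. The value at E17.5 was 3.50-fold that at E12.5 (3.86-fold after median-ratio scaling), while Fgfr1 at E12.5 was 1.81-fold its own level at E17.5. The step from Ph1 to Ph2 did not pass the test (log2 difference -0.54, adjusted p = 0.183, limma), and Fgfr3 fell by 1.63 from Ph2 to Ph3 (SE 0.424, adjusted p = 0.00491, limma). That call was lost without E18.5, D5, W6 or W8 (adjusted p from 0.0103 to 0.0340) and after median-ratio scaling (-1.18, adjusted p = 0.0337). It was also lost with no filter or with quantile normalization (adjusted p = 0.0122 and 0.0622, limma), and was kept in 17 of 26 alternatives.

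Markers of several cell types moved with Fgfr3. Over 15 timepoints that share their ages, the Pearson r of Fgfr3 with a summed marker list on the log2 scale was 0.80 for mesenchyme, 0.80 for endothelium, 0.76 for blood, 0.75 for enteric neurons and glia, and 0.57 for the 6 squamous forestomach markers. The squamous markers, described further here, were higher at E17.5 than at E12.5, as Fgfr3 and Fgf7 were. The same held for the sums of mesenchyme (1313 FPKM at E12.5, 2251 at E17.5), epithelium (517 and 2532) and smooth muscle markers (1256 and 5806). It also held for the stomach, mesothelium, intestine, pancreas and liver sums. The squamous markers summed to 67.6 FPKM at E13.5 and 8794 at E17.5, ranged from 1215 to 8199 in Ph2, and were at 1100 at W3 and 512 at W6. All 6 were above 0 at every timepoint. At W8 the sum was 10.4, with the keratins Krt5 at 1.26 and Krt13 at 5.96 FPKM. Fgfr3 at W8 was 1.47-fold its W6 level, with bounds that did not overlap before scaling, and 1.24-fold after median-ratio scaling. With Fgf7, r was 0.81 for the squamous and 0.70 for the mesenchyme markers. The part of these cell types in the courses of Fgfr3 and Fgf7 was not tested.

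**Figure D3:**
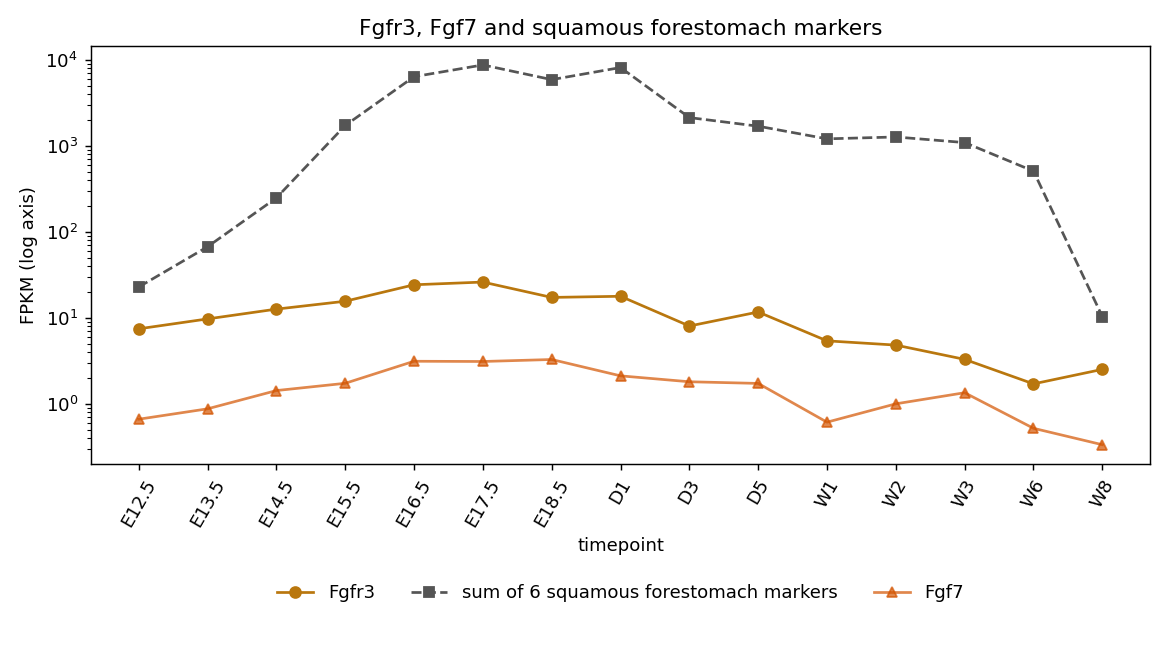
FPKM of Fgfr3, Fgf7 and the sum of 6 squamous forestomach markers on a log axis at the 15 timepoints, with 1 transcriptome per point. All of them are high between E16.5 and D1, and at W8 the marker sum is at 10.4 while Fgfr3 is at 2.54.

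Fgfr4, a receptor best known from liver, was the least abundant receptor at every timepoint and held a level from 4.24 to 5.05 FPKM throughout Ph1. It was 2.36, 2.40, 2.55, 3.82, 3.36 and 2.46 from E18.5 to W2, and 1.43, 0.689 and 1.03 at W3, W6 and W8. The 3 phases did not overlap in FPKM, but after median-ratio scaling D5 (3.60) and W1 (3.59) lay above E12.5 (3.35) and E15.5 (3.36). The value at E17.5 was 1.87-fold that at E18.5. Fgfr4 fell by 0.53 from Ph1 to Ph2 and by 0.90 from Ph2 to Ph3 (SE 0.111 and 0.136, adjusted p = 0.00102 and 0.000209, limma). After median-ratio scaling the first difference was -0.30 and no longer passed (adjusted p = 0.0262, limma), and the second was -0.57 (adjusted p = 0.00346). The first call was also lost with life stages as groups (-0.40, adjusted p = 0.0328, limma), and the second with quantile normalization (-0.37, adjusted p = 0.0351, limma). At D1, where the liver markers Alb and Afp stood at 461 and 186 FPKM, Fgfr4 was at 2.40, between its values at E18.5 and D3. The part of liver tissue in the Fgfr4 values was not tested.

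**Figure D4:**
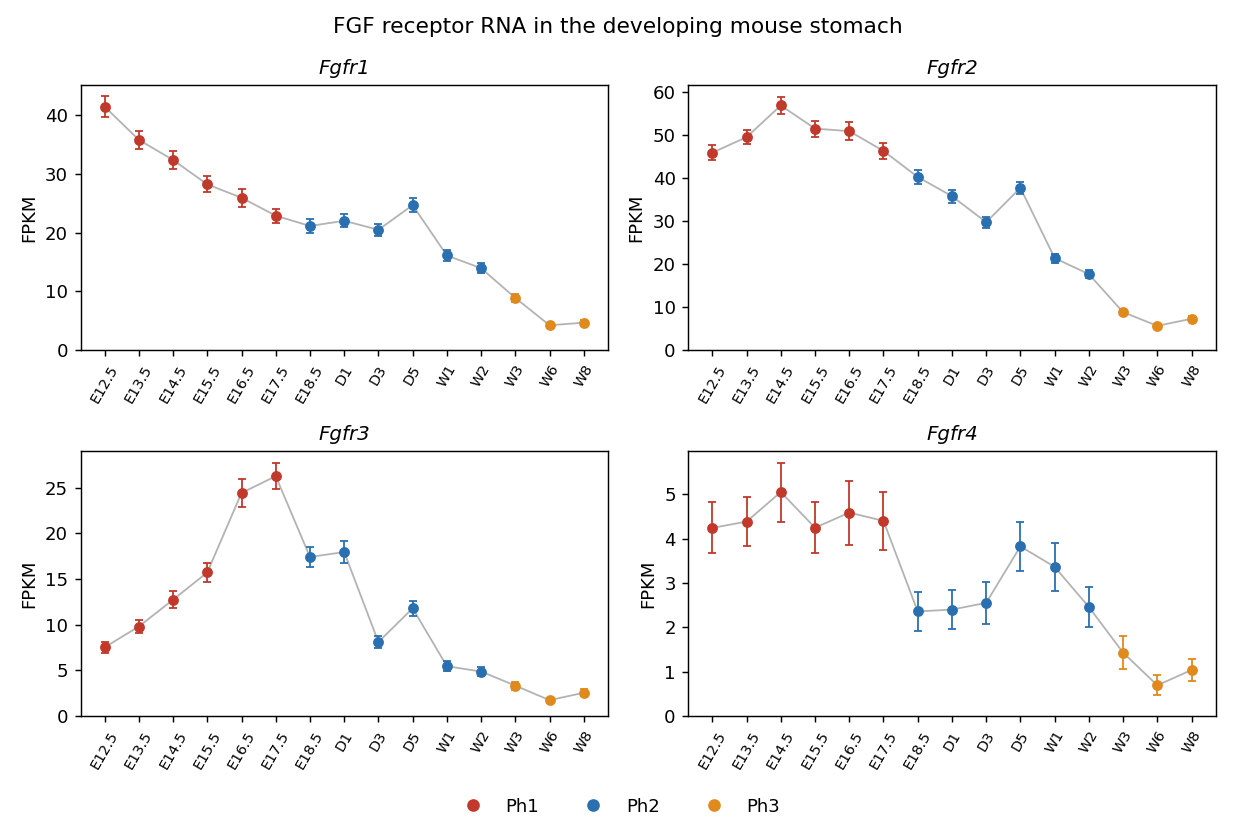
FPKM of the 4 receptors at the 15 timepoints, each panel on its own axis from 0, with points colored by phase and bars giving the deposited confidence bounds (counting error only). Fgfr1 is highest at E12.5 (41.4), Fgfr2 and Fgfr4 at E14.5 (56.9 and 5.05) and Fgfr3 at E17.5 (26.3), and all 4 are lowest at W6.

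The receptors' shares of their summed FPKM, which no scaling changes, moved most within Ph1. The Fgfr1 share was 41.8% at E12.5 and 22.9% at E17.5, and the Fgfr3 share was 7.58% and 26.3%. By W1 the shares were 34.8% and 11.8%. The Fgfr2 share stayed between 39.3% and 53.2%, and the Fgfr4 share ranged from 2.90% at E18.5 to 7.27% at W1. The Fgfr4 share was 4.26% to 4.72% in Ph1 and 5.64% to 6.69% in Ph3, ranges that do not overlap and were not tested against each other. In 8 exact two-sided permutation tests between consecutive phases, no share passed at an adjusted p under 0.05 (lowest adjusted p = 0.571), and 0 had an unadjusted p under 0.05. The smallest p that 6 against 3 timepoints allow is 0.0238 before adjustment, so a single share could not have passed at the step into Ph3. The largest difference of means was in the Fgfr2 share, at 47.4% ± 1.79 over the 6 timepoints of Ph2 and 44.0% ± 4.15 over the 3 of Ph3 (mean ± SD). Fgfr1 was 0.903 times Fgfr2 at E12.5, 0.494 times at E17.5 and 1.01 times at W3, and the difference of the mean log2 ratio between consecutive phases did not pass (exact permutation test, adjusted p = 0.597 for both steps).

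**Figure D5:**
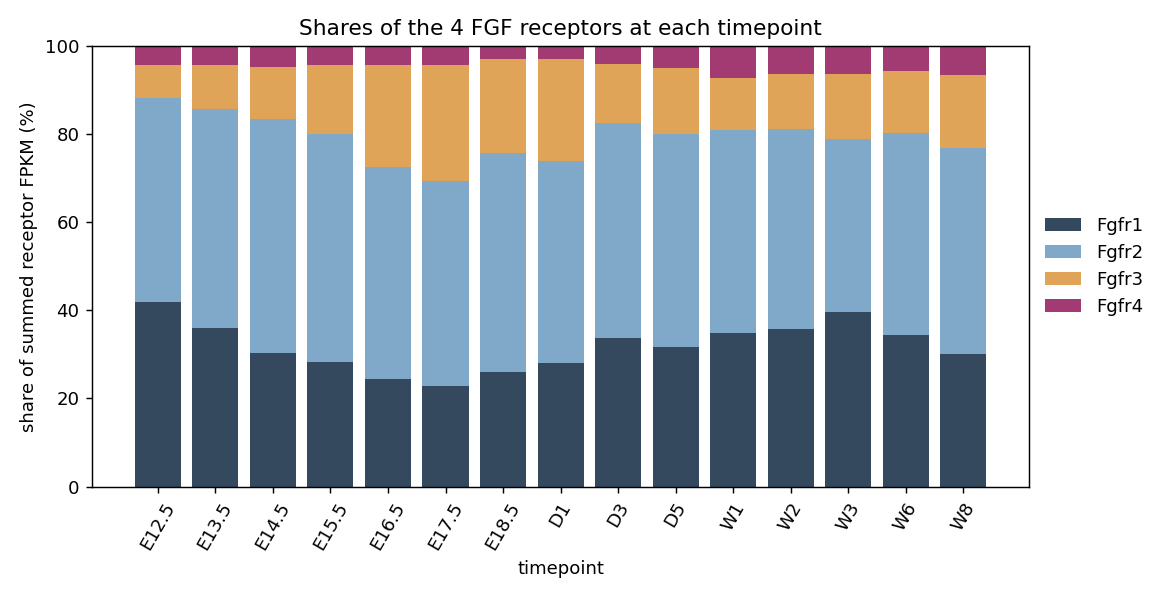
Share of each receptor in the summed FPKM of Fgfr1, Fgfr2, Fgfr3 and Fgfr4 in percent, as stacked bars for the 15 timepoints with 1 transcriptome each. The Fgfr1 share is 41.8% at E12.5 and 22.9% at E17.5 as the Fgfr3 share goes from 7.58% to 26.3%.

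Across all phases, 6 of the 9 tested members passed limma's F test at an adjusted p under 0.01 (Fgf9, Fgf10, Fgfr1, Fgfr2, Fgfr3 and Fgfr4), where 70.8% of all tested symbols did. From Ph1 to Ph2, 4 members fell and 0 rose, with 35.1% of all symbols called lower and 13.2% called higher. From Ph2 to Ph3, 5 members fell and 0 rose, with 37.4% of all symbols called lower and 3.41% higher. After median-ratio scaling, 5 members passed the F test against 60.7% of all symbols. At the single steps 1 member (Fgf10) fell at the first step against 18.7% of all symbols called lower and 20% called higher, and 4 fell at the second (Fgf9, Fgfr1, Fgfr2 and Fgfr4) against 10.2% called lower and 15.3% called higher. At an unadjusted p under 0.05, 0 members had a positive difference at either step with either scaling, and with quantile normalization Fgf18 had one at the second step (0.67, unadjusted p = 0.0168, limma). With fetal, suckling and weaned timepoints as groups, 6 members passed the F test against 67.9% of all symbols, 2 fell after birth (Fgf10 and Fgfr2) against 30.6%, and 5 fell at weaning against 28.9%. With the same groups and median-ratio scaling the counts were 6 against 57.7%, 2 against 15% and 4 against 7.72%. With quantile normalization they were 5 against 61.3%, 3 against 29% and 3 against 7.65% for the phases. Without D1 and W8 they were 6 against 65.6%, 3 against 32.4% and 4 against 23.6%. A one-way test on untransformed FPKM called 5 members against 65.4% of all symbols.

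Markers of other cell types moved over the same phases. All Ph3 values of 6 of the 9 tested members lay below all their Ph1 values, as did those of 55.2% of all tested symbols, and 0 members lay wholly above, against 12.3% of all symbols. By the same reading, 5 of 6 mesenchyme, 5 of 5 endothelium and 5 of 6 enteric neuron and glia markers lay lower in Ph3 and none higher. The 6 mesenchyme markers summed to between 1313 and 2695 FPKM in Ph1, 1250 and 3049 in Ph2 and 215 and 1071 in Ph3. The 5 endothelium markers ranged from 79.7 to 95.7, from 48.4 to 83.1 and from 19.3 to 33.7, and the 6 markers of enteric neurons and glia from 57.3 to 144, from 37.1 to 64.7 and from 10.8 to 19.2. Of 6 epithelium markers, Krt8, Krt18, Krt19 and Cdh1 lay higher in Ph3, Epcam overlapped (85.5 to 138 FPKM in Ph1, 75.5 to 104 in Ph3) and Cldn4 lay lower (24.1 to 81.0 in Ph1, 0.551 to 7.21 in Ph3). The keratins carried the list's sum, which was 517 to 2532 in Ph1 and 3948 to 5687 in Ph3. Of 5 mesothelium markers, Krt19 is also in the epithelium list, and the other 4 (Msln, Upk3b, Lrrn4 and Wt1) summed to between 38.7 and 62.0 FPKM in Ph1, 26.2 and 92.0 in Ph2 and 9.10 and 22.4 in Ph3. Smooth muscle markers (6) summed to between 1256 and 5806, 4278 and 10483, and 2083 and 7771, and pancreas markers (8) reached 132 at D3 and 102 at W6. The 4 erythroid markers of the blood list lay lower in Ph3, with Hba-a1 at 2398 to 3576 FPKM in Ph1 and 154 to 364 in Ph3. Its leukocyte markers overlapped between these phases, with Ptprc at 0.874 to 1.61 and 0.965 to 1.27 FPKM and Cd68 at 3.24 to 7.58 and 3.74 to 8.45. The part of these cell types in the members' differences was not tested.

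Genes with a course most like a member's were read from the Pearson r over the 15 timepoints, which all genes share, so high values are common. Fgf10 was most like Hs6st2, a heparan sulfate sulfotransferase, Rps6ka2, a kinase downstream of MAPK, and Slco5a1 (r = 0.995, 0.995 and 0.993), and 3135 symbols had r of at least 0.9. Fgfr1 was most like Gpr124, Daam2 and Dnm1 (r = 0.996, 0.995 and 0.994, with 4014 such symbols), and Fgfr2 was most like Ldlrad3, Sema5a and Zbtb34 (r = 0.995, 0.991 and 0.990, with 3404). Fgfr4 was most like Rasip1, L3hypdh and Bcl6b (r = 0.977, 0.975 and 0.971, with 2158). The course of Fgf7 was shared by few genes, with Sptlc3, Anxa1 and Car12 closest (r = 0.952, 0.949 and 0.941) and 28 symbols at 0.9 or more. Fgfr3 was closest to Papln, Hoxc6 and the retinoic acid receptor Rarg (r = 0.973, 0.970 and 0.968, with 163), and Fgf9 to Fadd, Mycn and Polr3gl (r = 0.970, 0.963 and 0.963, with 433). No symbol reached 0.9 with Fgf2 (Gm10689, LOC102640526 and Tmprss6, r = 0.806, 0.769 and 0.719) or Fgf18 (Def8, Nfe2 and LOC102632902, r = 0.681, 0.666 and 0.657). Among the members, Fgfr1 and Fgfr2 were the pair most alike (r = 0.964), and Fgf7 was closer to Fgfr3 (r = 0.851) than to Fgf10 (r = 0.06).

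Other genes of the pathway were counted from 8 lists of 97 symbols, of which 86 were tested. From Ph1 to Ph2, 46 fell, 5 rose and 35 did not pass, with a median log2 difference of -0.45 beside -0.22 over all symbols. That is 53.5% called lower and 5.81% higher, against 35.1% and 13.2% of all symbols. From Ph2 to Ph3, 45 fell, 1 rose and 40 did not pass, with a median of -0.69 beside -0.43, or 52.3% lower and 1.16% higher against 37.4% and 3.41%. After median-ratio scaling the counts were 24 lower and 11 higher at the first step and 21 lower and 9 higher at the second, with medians of -0.21 and -0.26. The shares called lower were then 27.9% and 24.4%, against 18.7% and 10.2% of all symbols, and the shares called higher 12.8% and 10.5%, against 20% and 15.3%. The counts of the single lists stand beside these same shares of all symbols. Of the 8 lists, other ligands, co-receptors, Ras-MAPK relay and induced genes had 40%, 37.5%, 30% and 37.5% called lower at the first step, near the 35.1% of all symbols. At the second step other ligands, Ras-MAPK relay and induced genes had 30%, 40% and 25%, near or below the 37.4% of all symbols.

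Among 10 tested ligands that are not members, 4 fell and 2 rose from Ph1 to Ph2, and 3 fell and 0 rose from Ph2 to Ph3. After median-ratio scaling 1 fell and 2 rose at the first step, and 2 fell and 0 rose at the second. Fgf22, a relative of Fgf7 and Fgf10, rose at the first step (log2 difference 1.66) and fell at the second (-1.79). Its FPKM was 0.108 to 3.00 in Ph1, 1.80 to 9.08 in Ph2 with the highest value at D1, and 0 at W8. Fgf20, a relative of Fgf9, fell at the first step (-0.92) from 0.355 to 1.72 FPKM in Ph1 to at most 0.154 in Ph2. Fgf13, an intracellular FGF of neurons, fell at the second step (-1.62), from 3.75 to 8.73 FPKM in Ph2 to 0.896 to 1.95 in Ph3.

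Among 8 tested co-receptors and binding partners, 3 fell and 1 rose at the first step, and 5 fell and 0 rose at the second. After median-ratio scaling 2 fell and 3 rose at the first step, and 3 fell and 0 rose at the second. Fgfbp1, which releases FGFs from the matrix, rose by 2.84 from Ph1 to Ph2 (SE 0.814, adjusted p = 0.00744, limma). Its FPKM was 1.72 at E12.5, 135 at E17.5 and 258 at E18.5. From D3 to W2 it was between 81.7 and 122, below its E17.5 level. With fetal and suckling timepoints as groups the rise of Fgfbp1 did not pass (2.08, adjusted p = 0.0800, limma). The adhesion proteins Cdh2 (first step, -1.78), Ncam1 (second step, -2.21) and Flrt2 (second step, -1.77) fell.

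Many but not all heparan sulfate genes passed the test as lower. Of 15 enzymes of heparan sulfate synthesis and trimming, 11 fell at the first step and 8 at the second and none rose, and after median-ratio scaling 6 fell and 1 rose at the first and 3 fell and 2 rose at the second. The endosulfatase Sulf1, which trims the sites FGFs bind, fell at both (-1.59 and -2.17), and Sulf2 fell at the second (-1.35), a call lost after median-ratio scaling (-0.76, adjusted p = 0.0416, limma). Hs6st2 fell at the first step (-1.46), from 1.35 to 7.60 FPKM in Ph1 to 0.282 to 1.29 in Ph2. Of 11 tested core proteins that carry heparan sulfate, 5 fell at the first step and 9 at the second and none rose, and after median-ratio scaling 4 fell and 1 rose at the first and 8 fell and 0 rose at the second. Gpc3 fell by 3.30 from Ph2 to Ph3 (SE 0.357, adjusted p = 5.27e-05, limma), from 69.5 to 191 FPKM in Ph2 to 7.43 to 26.2 in Ph3. Gpc6 fell at both steps (-1.59 and -1.85) and Gpc2 at the first (-1.90).

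Inside the cell, 11 of 13 receptor adaptors fell at the first step and 7 at the second and none rose, but after median-ratio scaling 4 and 2 fell. Plcg1, a phospholipase bound by FGF receptors, fell at both steps (-1.12 and -1.10, the second lost after median-ratio scaling with adjusted p = 0.0688, limma), Crkl at the first (-0.85) and Gab2 at the second (-1.01). Of 10 tested members of the Ras-MAPK relay, 3 fell and 1 rose at the first step and 4 fell and 1 rose at the second, while after median-ratio scaling 1 fell and 3 rose, and then 0 fell and 5 rose. Nras fell at both steps (-0.80 and -0.72) and Ksr1, a scaffold of the cascade, at the second (-0.69), and both second-step calls were lost after median-ratio scaling (-0.15 and -0.27, adjusted p = 0.396 and 0.0845, limma). Mapk3, which encodes ERK1, rose at the first step (0.51, or 0.79 after median-ratio scaling), from 86.5 to 144 FPKM in Ph1 to 142 to 175 in Ph2.

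Of 11 tested feedback inhibitors of the pathway, 6 fell and 1 rose at the first step and 7 fell and 0 rose at the second, and after median-ratio scaling 4 fell and 1 rose and then 2 fell and 2 rose. The phosphatase Dusp4 and the receptor antagonist Il17rd fell at the first step (-1.12 and -1.03). Spry1 fell by 1.74 at the second (SE 0.187, adjusted p = 5.27e-05, limma), from 16.4 to 22.8 FPKM in Ph2 to 3.41 to 8.13 in Ph3, as did the phosphatase Dusp7 (-1.27, a call lost after median-ratio scaling with adjusted p = 0.0125, limma). Of 8 genes that FGF signaling is known to induce, 3 fell at the first step and 2 at the second and none rose, and after median-ratio scaling 2 and 1 fell. Etv4 and Ccnd1 fell at the first step (-0.96 and -0.76), and Etv1 and Myc at the second, Etv1 by -1.49. The call of Myc was lost after median-ratio scaling (-0.45, adjusted p = 0.0577, limma). With life stages as groups the calls of Fgf22 at both steps, Etv4 at the first and Plcg1 at the second were lost (adjusted p = 0.0150, 0.0155, 0.0625 and 0.0164, limma).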

How the data were processed

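RNA-Seq of whole mouse stomachs at 15 timepoints was analysed, grouped by label and by the RNA phases of the study. Per the file headers, the values are FPKM of each gene entry, and the authors deposited a confidence interval with each. By the methods, reads were filtered with FastQC, mapped to GRCm38 with HISAT2 and quantified with StringTie and GENCODE, whereas the submitters' processing notes name Bowtie 0.12.2 and the files have the layout of Cufflinks with RefSeq identifiers. The methods name liver as the RNA source and the labels stomach. By the study's reporting summary, 3 stomachs made up a sample up to E14.5, 2 up to E17.5 and 1 later, without saying whether this holds for RNA in particular.

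Entries of a symbol were summed. Symbols that reached an FPKM of 1 anywhere were tested on log2(FPKM + 1) with limma 3.58.1 in R 4.3.3 (F test across phases and contrasts of consecutive phases, Benjamini-Hochberg adjustment over 16902 symbols, threshold 0.01). FPKM are no counts, so no count test was used. Shares and ratios were compared with exact two-sided permutation tests in SciPy 1.17.1 (924 splits for 6 against 6, 84 for 6 against 3), adjusted within each family at 0.05. Effective fragments were taken as the square of 2 times the FPKM over the distance to the upper bound, which covers counting error only. Read depth is not stated, and relative depth ranged from 0.702 (E16.5) to 1.17 (W6) of that at E12.5. The test was also run on simulated data with independent noise at each timepoint and a small set of genes shifted by known amounts. Trends with age inside a phase were not simulated. The run therefore checks the code and not how the test behaves on these transcriptomes.

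The members and gene lists were chosen with earlier results of these data known. Named were all members, the 2 symbols with the largest absolute difference per list and step among those called, the 3 symbols most like each member, and markers that moved with a member. Fgf11, Fgf16, Fgf21, Egr1 and Fos were named after their values were seen. Alternatives covered pseudocount, filter, scaling, gene entries, phase borders, life stages, test and each timepoint left out.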

Additional observations from a re-analysis of the deposited data

Results flagged for a closer look

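In 32 sets of 6 timepoints (10 members, 4 shares and 2 ratios in Ph1 and in Ph2), 2 values lay far from the others of their phase. Chance gives about 1 in 20 sets for independent values, so 2 of 32 is near the number that chance gives. Timepoints that follow age, and a set made mostly of zeros, do not meet that condition, so the rate is only a rough guide. Fgf15 was at 0.872 FPKM at E16.5 and at 0 at the other Ph1 timepoints. The Fgfr4 share of the receptor sum was 4.72% at E14.5 and from 4.26% to 4.41% at the other Ph1 timepoints.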

How the results depend on the processing

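Across the phases, 6 members were called in every run that left out 1 timepoint, 7 with a spline over the rank of age and 5 with median-ratio scaling, quantile normalization or a one-way test on untransformed FPKM. From Ph1 to Ph2 the count was 1 with median-ratio scaling and 2 with life stages as groups, also 2 with both together. From Ph2 to Ph3 it was 3 with quantile normalization. Leaving out each timepoint gave 3 to 4 and 4 to 5 members. The pathway lists had 38 to 57 calls (lowest without E13.5) at the first step and 31 to 51 (lowest without W6) at the second without 1 timepoint. At the second step they had 30 with median-ratio scaling, 22 with quantile normalization and 18 with scaling and life stages together, which gave 27 at the first. The calls of Fgf10 at the first step and of Fgf9, Fgfr1 and Fgfr2 at the second were kept in all 26 alternatives. The cause of these losses was not tested.

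Signs that turned all belonged to differences that did not pass. From Ph1 to Ph2 with median-ratio scaling these were Fgf2 (0.093), Fgf7 (0.135), Fgf9 (0.067) and Fgf18 (0.042), with life stages as well Fgf2 (0.17), Fgf9 (0.11) and Fgf18 (0.14), and with E17.5 in Ph2 Fgf7 (0.20). Without 1 timepoint the first difference ranged from -0.36 to 0.17 for Fgf2 and from -0.16 to 0.13 for Fgf7, and the second from -0.0768 to 0.22 for Fgf18. The Fgfr1 share difference was -1.74 points with E17.5 in Ph2, and the Fgfr3 share difference was -1.43 with life stages and -0.915 without D1 and W8. Without 1 timepoint the first difference ranged from -0.491 to 3.29 points (Fgfr1), -1.19 to 2.56 (Fgfr3) and -0.123 to 0.750 (Fgfr4), and the second from -1.98 to 0.267 (Fgfr3). The log2 ratio of Fgf10 to Fgf7 differed by -2.51 to -1.54 and by -0.62 to 0.37, and passed at the first step without E17.5 and with E17.5 in Ph2 (-2.57). With life stages as groups its first difference was -1.55 and did not pass. Of 27 symbols most like a member, 14 were kept with median-ratio scaling and 4 with Spearman's rho. The chromosome entry of Fgf2, the runs without D1 and W8 and the joint scaling and life stages were chosen after the data were seen. Depth limits Fgf2, Fgf15 and Fgf18 most. No paired analysis was possible because each timepoint had only 1 transcriptome.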

Other observations

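Among FGF ligands outside the 10 members, Fgf21, a liver hormone in the adult, was at 1.47 FPKM at D1, the timepoint with high Alb and Afp, and at most 0.299 at any other. The source of the Fgf21 RNA was not tested. Fgf16, a relative of Fgf9, was at 1.11 FPKM at E16.5, 0.770 at E17.5 and 0.917 at E18.5, and at 0.0341 at E12.5. The neuronal Fgf11 was at 7.44 to 7.93 FPKM from E12.5 to E15.5 and lowest at W6 with 2.18.

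The immediate early genes Egr1 and Fos, which FGF signaling can induce, varied between neighbouring timepoints. Egr1 was at 37.3 FPKM at E16.5, 5.90 at E17.5, 6.67 at E18.5 and 46.2 at W1, and Fos was at 58.6, 8.35, 8.12 and 60.9 FPKM at the same timepoints. Neither passed the test at either step.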
